A study of Mus musculus with 10 samples.

Results

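The Nr4a orphan nuclear receptors, Nr4a1, Nr4a2 and Nr4a3, were followed in RNA sequencing libraries of mouse barrel cortex. The genes were taken by symbol, and these 3 of the 52636 genes in the count table make up the whole family. All 3 passed the low-count filter that left 18455 genes for testing.

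The tissue was S1BF, the whisker-related barrel field within primary somatosensory cortex, of C57BL/6 mice at postnatal day 17. There were 3 genotypes, all with the floxed Rxra allele Rxratm1Krc/J; Rxra encodes retinoid X receptor alpha. Loxp (4 libraries, also labelled Rxra loxP) had this allele alone. Hetero (2 libraries, Rxra cKO-Het) and cKO (4 libraries, Rxra cKO) had Nex-cre in addition, with 1 allele deleted in Hetero. Nex-cre expresses Cre from the Neurod6 locus, which is used by cortical excitatory neurons. Loxp carried no Cre, so in each comparison with Loxp the deletion and the presence of Cre cannot be told apart. Other cell types of the tissue kept Rxra by design. The labels do not tie libraries to separate animals, and p-values measure the spread between these libraries, which may be technical.

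Nr4a receptors have a ligand-binding domain without an open pocket and act mainly through how much of them a cell makes. In neurons they are immediate early genes: synaptic activity and calcium switch them on within a short time through CREB, SRF and MEF2, without new protein synthesis. They bind a DNA element called the NBRE (AAAGGTCA) as monomers, and Nr4a1 and Nr4a2, but not Nr4a3, also form heterodimers with retinoid X receptors. Nr4a2 has a further role as a constant identity gene of midbrain dopamine neurons, claustrum and deep cortical neurons.

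Nr4a1 (ENSMUSG00000023034; Nur77) lies on chromosome 15 at 101254269 to 101274795 on the plus strand and has 4 annotated transcripts. Nr4a2 (ENSMUSG00000026826; Nurr1) lies on chromosome 2 at 57106830 to 57124003 on the minus strand, with 6 transcripts. Nr4a3 (ENSMUSG00000028341; Nor1) lies on chromosome 4 at 48045153 to 48086447 on the plus strand, with 4 transcripts. These are GRCm38 coordinates of GENCODE M21, in which 0 other annotated genes overlap each of them. The upstream sequence is shown because all 3 are known as immediate early genes and their start regions can be compared. Each run below is from the RefSeq promoter (GRCm38.p6), read in the direction of transcription. For Nr4a1 and Nr4a2 it ends at the base before the RefSeq start, which for Nr4a1 lies within the gene span given above. The run was cut at the first base in an annotated exon. That of Nr4a3 therefore ends at the base before its GENCODE gene start, short of its RefSeq start. Capitals mark half-sites of the cAMP response element bound by CREB (TGACG, or CGTCA where it lies on the other strand), and in Nr4a2 also a MEF2 box.

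Nr4a1, chr15:101266596-101266845, plus strand: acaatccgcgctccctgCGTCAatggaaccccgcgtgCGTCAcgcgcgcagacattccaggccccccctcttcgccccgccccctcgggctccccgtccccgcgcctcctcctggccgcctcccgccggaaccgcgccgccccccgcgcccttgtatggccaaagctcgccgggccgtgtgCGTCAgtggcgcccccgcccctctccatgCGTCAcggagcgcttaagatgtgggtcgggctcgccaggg
Nr4a2, chr2:57124004-57124253, minus strand: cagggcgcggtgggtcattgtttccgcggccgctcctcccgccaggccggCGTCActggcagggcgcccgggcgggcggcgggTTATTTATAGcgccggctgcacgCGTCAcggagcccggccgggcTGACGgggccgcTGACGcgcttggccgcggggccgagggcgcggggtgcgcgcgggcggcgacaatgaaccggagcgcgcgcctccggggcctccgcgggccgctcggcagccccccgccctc
Nr4a3, chr4:48045055-48045152, plus strand: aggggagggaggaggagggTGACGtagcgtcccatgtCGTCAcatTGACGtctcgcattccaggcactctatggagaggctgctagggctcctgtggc

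The Nr4a1 promoter held 4 half-sites, at 233 to 229, 213 to 209, 69 to 65 and 40 to 36 bases upstream of the start. In Nr4a2 there were also 4, all within 200 bases, and a MEF2 box (TTATTTATAG) 167 to 158 bases upstream. In the 98 bases shown for Nr4a3 there were 3, and the 250 bases of its table entry before the start held 4. Over all 32851 promoters of the RefSeq table, searched on both strands over the same 250 bases, 17.8% held at least 1 half-site, 0.688% held 3 or more and 0.137% held 4 or more. The MEF2 box was in 2.92% of them. The full element TGACGTCA, which contains a half-site on each strand, the NBRE and the CArG box of SRF were not in the windows shown, and occurred in 1.55%, 1.34% and 1.47% of all promoters. Among 19 promoters of 13 rapid activity-induced genes found in the same table, 68.4% held a half-site, 47.4% held 2 or more and 5.26% held 3 or more. These matches are letters in a window and say nothing of binding in this tissue.

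The libraries held 19332990 to 26086337 counts, of which 2.80% to 3.68% were mitochondrial. Markers of cortical excitatory neurons summed to 2818 to 3334 CPM (counts scaled by TMM to a common library total) in the 10 libraries, and none of the 7 was at 0 in every library. Neurod6, at the Cre locus, was at 66.7, 55.7, 61.9 and 34.9 CPM in the Loxp libraries, 34.4 and 34.0 in the Hetero libraries and 32.9, 22.9, 38.1 and 24.0 in the cKO libraries. The library labelled Loxp 4 thus lay at the level of the Nex-cre libraries, and the values of the 3 genes and the counts of the gene lists against Loxp are given with and without it. Rxra was at 26.6 ± 4.43 CPM over the 4 Loxp libraries (SD), 24.8 ± 2.26 over the 2 Hetero libraries (SD) and 30.7 ± 1.74 over the 4 cKO libraries (SD), and counts over the whole gene do not check the deletion. Striatal projection neuron markers, from tissue below the cortex, varied widely within Loxp and cKO and were lowest in Loxp 2 and cKO 2. Choroid plexus markers summed to 730.2 CPM in Hetero 2 and to at most 22.2 in any other library.

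Per transcript length, Nr4a1 was the most abundant family member. The authors' FPKM of Nr4a1 averaged 109 ± 47.7 over the 4 Loxp libraries (SD), 52.9 ± 10.6 over the 2 Hetero libraries (SD) and 68.9 ± 19.9 over the 4 cKO libraries (SD). For Nr4a2 the mean FPKM was 10.7 ± 1.65, 9.28 ± 0.127 and 11.9 ± 4.29 in the same order, and for Nr4a3 it was 8.06 ± 1.89, 6.13 ± 0.735 and 5.97 ± 1.60. Nr4a1 made up 69.7% (cKO 2) to 90.3% (Loxp 4) of the summed FPKM of the family. The order Nr4a1, Nr4a2, Nr4a3 held in 9 of 10 libraries; in Loxp 3 the FPKM of Nr4a2 was 0.855 times that of Nr4a3. In Loxp the FPKM ranges of Nr4a2 (8.70 to 12.2) and Nr4a3 (6.41 to 10.2) overlapped, and in Hetero and cKO they did not. Among the possible partners, the mean FPKM in Loxp was 28.1 ± 2.12 for Rxrb, 4.83 ± 0.819 for Rxra and 4.38 ± 3.95 for Rxrg (SD, n = 4 each), so Nr4a1 lay above all 3 RXR genes.

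Nr4a1 was lower in both Nex-cre groups, without passing the test over all genes. Its CPM were 241, 153, 254 and 433 in Loxp 1 to 4, 150.0 and 113 in Hetero 1 and 2, and 165, 145, 133 and 243 in cKO 1 to 4. All Loxp libraries exceeded both Hetero libraries, and all exceeded cKO 2 and 3; cKO 1 lay above Loxp 2, and cKO 4 stood apart at the level of Loxp 1 and 3. Mean CPM was 270.0 ± 117 over the 4 Loxp libraries (SD), 132 ± 26.0 over the 2 Hetero libraries (SD) and 171 ± 49.3 over the 4 cKO libraries (SD). The counts behind them, 2518 to 10854 per library, were far from the range in which counting error limits precision.

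Nr4a2 stood in 9 of 10 libraries within a narrow range that held all 3 genotypes. Its CPM were 48.5, 40.5, 35.7 and 49.5 in the Loxp libraries 1 to 4, 38.2 and 37.5 in the Hetero libraries, and 47.6, 73.7, 36.6 and 36.2 in the cKO libraries 1 to 4. The single high library was cKO 2, and the other 9 lay between 35.7 and 49.5, with the groups overlapping. Nr4a2 averaged 43.5 ± 6.61 CPM over the 4 Loxp libraries (SD), 37.9 ± 0.439 over the 2 Hetero libraries (SD) and 48.5 ± 17.6 over the 4 cKO libraries (SD).

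Nr4a3 was lower on average in both Nex-cre groups, again without passing. Its CPM were 55.1, 38.7, 61.5 and 39.1 in the Loxp libraries 1 to 4, 40.0 and 33.8 in the Hetero libraries, and 29.0, 43.4, 45.1 and 26.3 in the cKO libraries 1 to 4. Loxp 1 and 3 were high and cKO 1 and 4 were low, and as cKO 2 and 3 lay above Loxp 2 and 4, the groups overlapped. The mean CPM of Nr4a3 was 48.6 ± 11.5 over the 4 Loxp libraries (SD), 36.9 ± 4.34 over the 2 Hetero libraries (SD) and 36.0 ± 9.70 over the 4 cKO libraries (SD). The libraries in which Nr4a3 was high or low were not those of Nr4a1: Loxp 4 held the highest Nr4a1 and a low Nr4a3, and cKO 4 held the highest Nr4a1 of its group and the lowest Nr4a3 of all.

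**Figure D1:**
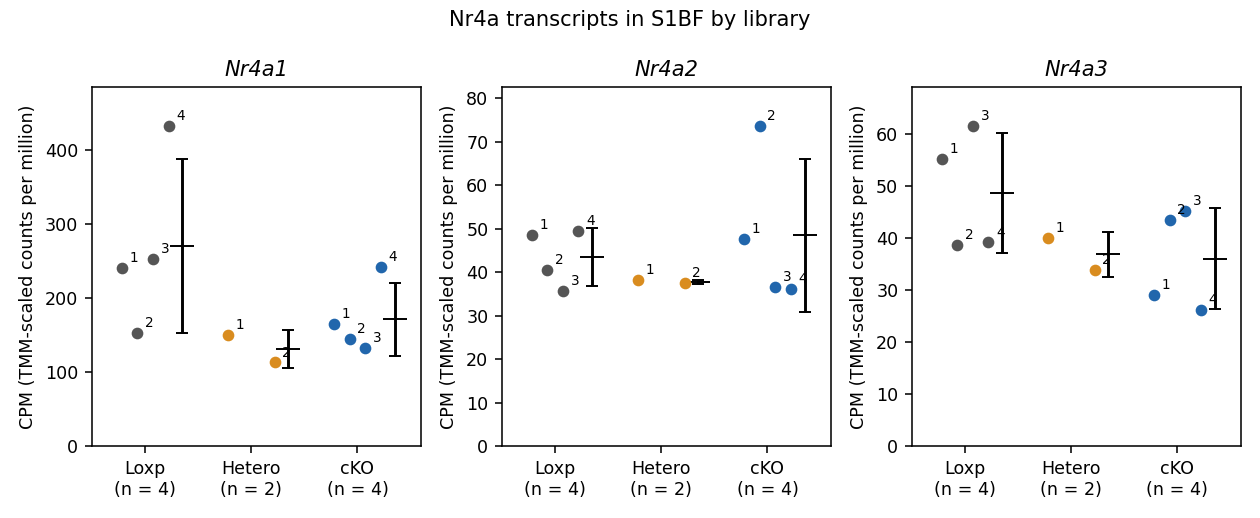
CPM (y axes, from 0) of each Nr4a gene in every library, with the replicate number beside each point and the group mean ± SD as a black bar. For Nr4a1 both Hetero libraries lie below all 4 Loxp libraries, Nr4a2 is high in cKO 2 alone at 73.7, and Nr4a3 is highest in Loxp 3 at 61.5.

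The spread within groups differed between the members. The coefficient of variation of Nr4a1 was 43.5% in Loxp and 28.8% in cKO, of Nr4a2 15.2% and 36.3%, and of Nr4a3 23.7% and 27.0%, where the median tested gene had 13.8% in both. In Loxp the highest Nr4a1 library was 2.84 times the lowest.

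The comparison of cKO with Loxp asked what differs when Rxra is deleted in excitatory neurons. Nr4a1 had a log2 fold change of −0.66 (SE 0.260) and Nr4a3 of −0.44 (SE 0.190), and Nr4a2 stood at 0.16 (SE 0.193), each with an edgeR adjusted p = 1. Of the 18455 genes 0% passed at an adjusted p under 0.05, and so 0 of the 3 members. Nr4a1 and Nr4a3 were 2 of 3 members lower at an unadjusted p under 0.05 in edgeR, a mark that 1.06% of tested genes reached. Groups without overlap and lower in cKO were found for 0.721% of genes and for 0 members. Exact two-sided permutation tests of log2 CPM gave p = 0.171 for Nr4a1, 0.8 for Nr4a2 and 0.171 for Nr4a3, where 0.0286 is the smallest p that 4 against 4 libraries allow.

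Single libraries moved these values. Without the library labelled Loxp 4, Nr4a1 in cKO against Loxp was at −0.33 (SE 0.214), Nr4a3 at −0.52 (SE 0.198) and Nr4a2 at 0.23 (SE 0.215). Nr4a3 was at −0.30 (SE 0.193) without Loxp 3. The unadjusted edgeR p of Nr4a1 was 0.156 without Loxp 4, 0.052 without cKO 1, 0.0548 without cKO 2 and 0.0779 without cKO 3. That of Nr4a3 was 0.106 without Loxp 1, 0.145 without Loxp 3, and 0.113 without cKO 1 or without cKO 4. Each stayed under 0.05 without any single other Loxp or cKO library. Nr4a2 was at −0.12 (SE 0.127) without cKO 2, at 0.07 without Loxp 3, and at 0.27 without cKO 3 or cKO 4. With no low-count filter, Nr4a1 passed in edgeR (−0.65, SE 0.132, adjusted p = 0.00649), and Nr4a2 and Nr4a3 did not (adjusted p = 0.922 and 0.23). That setting tests 32197 genes and raises edgeR's prior degrees of freedom from 6.32 to 89.8, so the spread of each gene is drawn further towards a common value.

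In Hetero against Loxp, where a single allele was deleted and Cre was present, all 3 members had values below 0. Nr4a1 stood at −1.04 on the log2 scale (SE 0.334), Nr4a3 at −0.40 (SE 0.237) and Nr4a2 at −0.20 (SE 0.240), each with an edgeR adjusted p = 1. Here too 0% of genes passed at an adjusted p under 0.05. Nr4a1 was the 1 member lower at an unadjusted p under 0.05 in edgeR, against 1.25% of genes. It was also the 1 member whose groups did not overlap, which held for 5.77% of genes in that direction. The exact permutation p was 0.133 for Nr4a1, the smallest that 4 against 2 libraries allow, and 0.4 for each of the others. Without the library labelled Loxp 4 the log2 fold changes were −0.70 (SE 0.263) for Nr4a1, −0.13 (SE 0.258) for Nr4a2 and −0.48 (SE 0.242) for Nr4a3. Nr4a3 was at −0.26 without Loxp 3. Without Hetero 2, the library with choroid plexus transcripts, Nr4a1 was at −0.85 (SE 0.446), Nr4a2 at −0.19 (SE 0.327) and Nr4a3 at −0.28 (SE 0.311), with the remaining Hetero library assumed to vary like the other groups. Without the low-count filter Nr4a1 passed (adjusted p = 2.59e-05).

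Hetero against Loxp and cKO against Loxp share the Loxp libraries, so their values are set side by side and are not independent. Nr4a1 was at −1.04 and −0.66, Nr4a2 at −0.20 and 0.16, and Nr4a3 at −0.40 and −0.44. Between cKO and Hetero, where both groups carry Nex-cre, the log2 fold change was 0.38 for Nr4a1 (SE 0.324), 0.36 for Nr4a2 (SE 0.241) and −0.04 for Nr4a3 (SE 0.234), each with an edgeR adjusted p = 1 and with 0% of genes passing. The exact permutation p was 0.4 for Nr4a1 and 0.8 for Nr4a2 and Nr4a3. For Nr4a1 this difference ranged from 0.16 without cKO 4 and 0.19 without Hetero 2 to 0.60 without Hetero 1, and for Nr4a2 it was 0.08 (SE 0.152) without cKO 2. Nr4a3 lay on either side of 0 depending on which library was left out (−0.17 to 0.09).

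With the Hetero and cKO means given equal weight and set against Loxp, Nr4a1 was at −0.85 (SE 0.242), Nr4a3 at −0.42 (SE 0.177) and Nr4a2 at −0.02 (SE 0.181) on the log2 scale. The edgeR adjusted p was 0.999 for each, and 0% of genes passed. Nr4a1 and Nr4a3 were lower at an unadjusted p under 0.05 in edgeR, as were 1.43% of genes. For Nr4a3 the unadjusted edgeR p was 0.103 without Loxp 1, 0.147 without Loxp 3 and 0.0581 without cKO 1. Of the 6 Nex-cre libraries 4 had less Nr4a1 than any Loxp library, and 3 had less Nr4a3. The exact permutation p over 6 against 4 libraries was 0.0571 for Nr4a1, 0.105 for Nr4a3 and 0.952 for Nr4a2, where 0.00952 is the smallest possible. Without the library labelled Loxp 4 the values were −0.52 (SE 0.201) for Nr4a1, −0.50 (SE 0.186) for Nr4a3 and 0.05 (SE 0.203) for Nr4a2. The small value of Nr4a2 changed sign without any one of Loxp 1, Loxp 4, cKO 3 and cKO 4. With no low-count filter Nr4a1 passed (adjusted p = 1.62e-06) and Nr4a3 did not (adjusted p = 0.119).

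**Figure D2:**
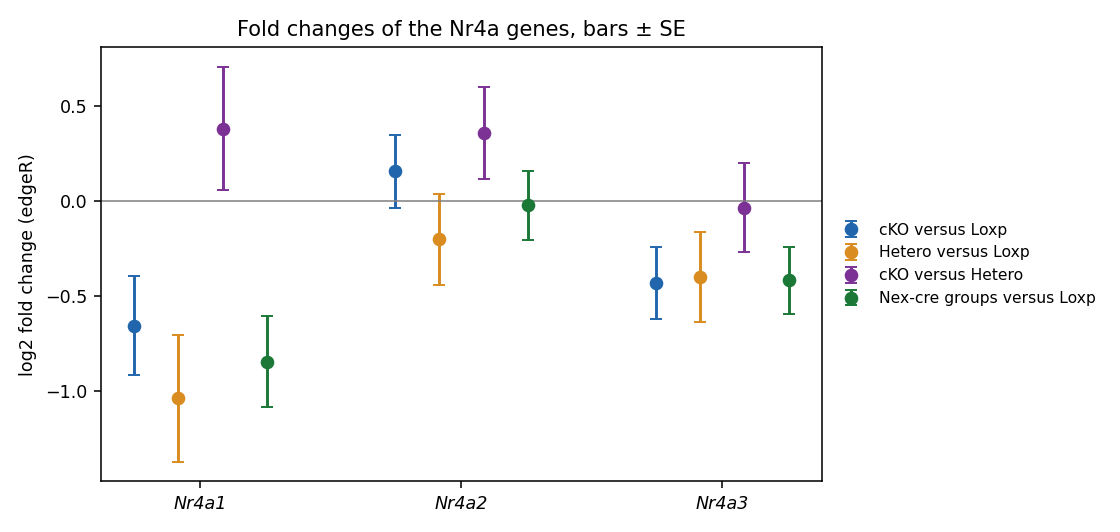
Log2 fold changes from edgeR (y axis, bars ± SE) of the 3 genes in 4 comparisons, which share libraries. Nr4a1 lies lowest in Hetero versus Loxp at −1.04, Nr4a3 lies near −0.4 in each comparison with Loxp, and Nr4a2 lies within about 1.5 SE of 0 throughout.

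**Figure D3:**
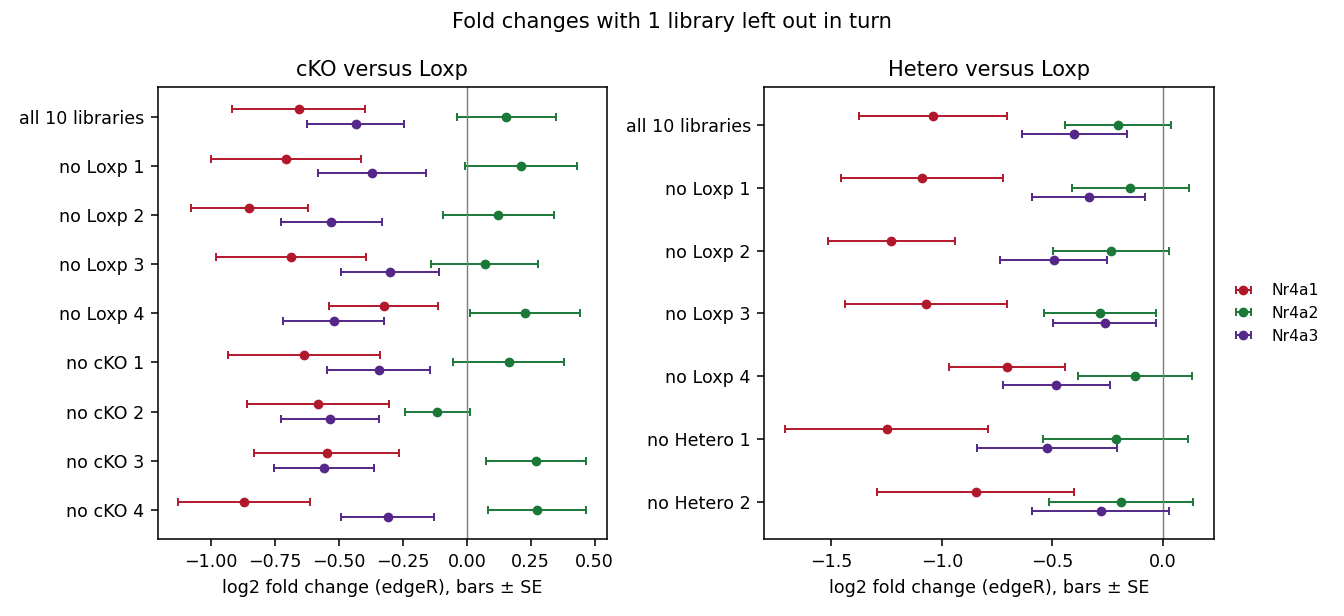
Log2 fold changes (x axes, bars ± SE) in cKO versus Loxp and Hetero versus Loxp with all 10 libraries and with 1 library left out in turn. Nr4a1 moves towards 0 without Loxp 4, at −0.33 and −0.70, and Nr4a2 crosses 0 in cKO versus Loxp without cKO 2.

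In the authors' deposited table, Nr4a1 is given at −0.66 (p = 0.0842) in cKO against Loxp and −1.04 (p = 0.0345) in Hetero against Loxp. The authors' deposited table gives Nr4a3 at −0.43 (p = 0.0305) and −0.40 (p = 0.0260), and Nr4a2 at 0.16 (p = 0.445) and −0.20 (p = 0.175). All adjusted p of the 3 genes in the authors' deposited table are 1. Among all genes given one there, 0 of 29220 were under 0.05 in cKO against Loxp and 25 of 27904 in Hetero against Loxp.

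Whether 2 members differed in their response was tested on their log2 ratio within each library, which does not depend on scaling. None of the 12 tests (3 ratios in 4 comparisons) passed. The log2 ratio of Nr4a1 to Nr4a2 was 2.31, 1.91, 2.83 and 3.13 in the Loxp libraries, 1.97 and 1.59 in the Hetero libraries and 1.79, 0.97, 1.86 and 2.74 in cKO. It was lower by 0.72 in the Nex-cre libraries (difference −0.72, exact permutation p = 0.0762, adjusted p = 0.429) and by 0.70 in cKO (difference −0.70, exact permutation p = 0.143, adjusted p = 0.429). Without cKO 2 the difference in cKO was −0.41, and without the library labelled Loxp 4 both were smaller, at −0.53 and −0.51. The log2 ratio of Nr4a1 to Nr4a3 differed by −0.15 between cKO and Loxp (exact permutation p = 0.743, adjusted p = 0.873). This difference was 0.20 without the library labelled Loxp 4. For Nr4a2 to Nr4a3 it was 0.55 (exact permutation p = 0.143, adjusted p = 0.429), with 3 of 4 cKO libraries above every Loxp library. It was 0.335 without Loxp 3 and 0.71 without the library labelled Loxp 4.

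No relation between the members was found across the 10 libraries. Pearson's r of log2 CPM was 0.07 between Nr4a1 and Nr4a2 (Spearman's rho 0.01), 0.16 between Nr4a1 and Nr4a3 (rho 0.05) and 0.09 between Nr4a2 and Nr4a3 (rho 0.01). The permutation p of these r was 0.844, 0.659 and 0.813, and each adjusted p over 9 relations was 0.844. The permutation p of rho was 1, 0.893 and 1. Without the 2 libraries farthest out on the first gene the 3 values of r were 0.03, −0.04 and −0.00.

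Nr4a1 varied with the other rapid activity-induced genes. The mean log2 CPM of 17 such genes (Fos, Egr1, Arc and others, without the Nr4a genes) was 5.59, 5.16, 5.45 and 5.92 in the Loxp libraries, 4.89 and 4.72 in the Hetero libraries, and 5.003, 5.16, 5.11 and 5.37 in cKO. Both Hetero libraries lay below all others and Loxp 4 above all; cKO 2 and 4 lay above Loxp 2, and cKO 1 and 3 below every Loxp library. With this level Nr4a1 had r = 0.94 (permutation p = 0.00021, adjusted p = 0.00189) and rho = 0.81 (permutation p = 0.00718, adjusted p = 0.0646). After the group means were subtracted r was 0.92 (exact permutation within groups p = 0.0139, adjusted p = 0.125). Without Hetero 2 and Loxp 4, the 2 libraries farthest from the median, r was 0.84 (exact permutation p = 0.0149, adjusted p = 0.134). Nr4a3 had r = 0.33 (permutation p = 0.358, adjusted p = 0.805) and rho = 0.37 (permutation p = 0.296, adjusted p = 1), and Nr4a2 had r = 0.21 (permutation p = 0.559, adjusted p = 0.839) and rho = 0.22 (permutation p = 0.536, adjusted p = 1). Without the same 2 libraries r was 0.43 for Nr4a3 and −0.04 for Nr4a2. Gene by gene, r with Nr4a1 ran from 0.18 for Amigo3 to 0.97 for Junb, with a median of 0.75, where the median over 13294 genes was 0.00 and the 95th percentile 0.58.

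With Rxra itself, r was 0.34 for Nr4a1 (permutation p = 0.333), 0.34 for Nr4a2 (permutation p = 0.352) and −0.22 for Nr4a3 (permutation p = 0.537), with rho of 0.15, 0.14 and −0.13 (permutation p = 0.682, 0.706 and 0.733). The adjusted p of r were 0.805, 0.805 and 0.839. Without Hetero 1 and Loxp 2 these r were 0.22, 0.29 and −0.41. After the group means were subtracted they were 0.72, 0.19 and −0.01 (exact permutation within groups p = 0.0686, 0.51 and 0.982, adjusted p = 0.309, 0.982 and 0.982).

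The rapid activity-induced genes as a list were lower in both Nex-cre groups. In cKO against Loxp 16 of 17 were lower (median log2 fold change −0.41), and in Hetero against Loxp 17 of 17 were lower (median −0.61). Over all 18455 genes 49.9% and 51.8% were lower, with medians of 0.00 and −0.01. At an unadjusted p under 0.05 there were 7 and 12 of the 17 lower, against 1.06% and 1.25% of all genes, and none passed over all genes. Without the library labelled Loxp 4, 13 of 17 were lower in cKO (median −0.20, with 5 at an unadjusted p under 0.05, against 1.51% of all genes), and 17 of 17 in Hetero (median −0.61). Without Loxp 2 there were 12 of 17 at an unadjusted p under 0.05 in cKO (median −0.52), against 1.22% of all genes, and without Hetero 2 there were 7 in Hetero (median −0.64), against 0.858%. Egr2, a zinc finger factor, stood at −1 (SE 0.212) in cKO and −1.40 (SE 0.279) in Hetero, and Fos, a subunit of AP-1, at −0.58 (SE 0.160) and −1.11 (SE 0.207). Arc, a synaptic protein, was at −0.91 (SE 0.242) and −1.37 (SE 0.314), and Egr3 at −0.51 (SE 0.136) and −0.47 (SE 0.170). Nr4a1 lay among the lower members of this list in both comparisons, Nr4a3 near its middle in cKO and nearer 0 in Hetero, and Nr4a2 above all 17 genes in both. Between cKO and Hetero 16 of 17 were higher, with a median of 0.41.

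**Figure D4:**
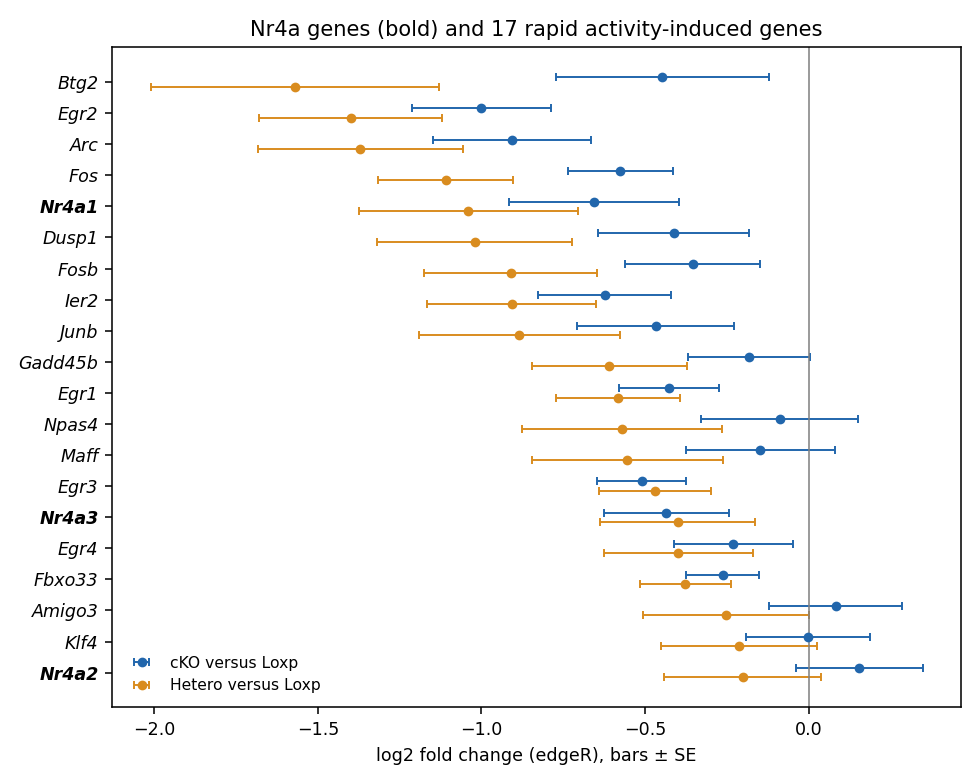
Log2 fold changes from edgeR (x axis, bars ± SE) of the 3 Nr4a genes (bold) and 17 rapid activity-induced genes in cKO versus Loxp and Hetero versus Loxp, ordered by the Hetero value. Nr4a1 lies between Fos and Dusp1, and Nr4a2 has the value nearest to 0 in Hetero.

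Striatal markers were also below Loxp: 7 of 7 were lower in cKO (median −0.17) and in Hetero (median −0.35) against Loxp, none with an unadjusted p under 0.05. All 7 were lower in both without the library labelled Loxp 4, with medians of −0.30 and −0.42. Without cKO 2, 0 of the 7 were lower in cKO (median 0.11), and Nr4a1 was then at −0.58 (SE 0.277) and Nr4a3 at −0.54 (SE 0.191). Without Loxp 2 the striatal medians were −0.50 and −0.66, and without Hetero 2 the Hetero median was −0.19. Their summed CPM ranged from 247 to 1012 in Loxp, 454 to 583 in Hetero and 233 to 897 in cKO, none was at 0 in every library, and their part in the Nr4a values was not tested. Across the 10 libraries, as a description, r of the 7 markers ran from 0.12 to 0.40 with Nr4a1 (median 0.29), from 0.06 to 0.31 with Nr4a3 (median 0.16) and from −0.45 to −0.28 with Nr4a2 (median −0.41). In bulk tissue, fewer cells that transcribe a gene and less RNA per cell cannot be told apart.

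By Pearson's r over 10 libraries, among 13295 genes ranked, the genes most like Nr4a1 were Junb (r = 0.97), Prr16 (0.94), Dusp1 (0.93), Pim3 (0.93) and Arc (0.93). Junb encodes an AP-1 subunit and Dusp1 a phosphatase of MAP kinases. Junb had CPM of 163, 94.5, 143 and 240.3 in the Loxp libraries, 94.2 and 79.5 in the Hetero libraries and 105, 114, 82.1 and 162 in cKO, with the same highest libraries in Loxp and cKO as Nr4a1. By r after subtracting group means Junb ranked 3rd, and 1 of the 5 genes stayed among the first 5; by Spearman's rho 2 did. Fos ranked 23rd by r, at 0.87.

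The genes most like Nr4a2 were Ntng2 (r = 0.95), Rarres2 (0.93), Necap2 (0.91), Rtbdn (0.91) and Tha1 (0.91). Ntng2, which encodes netrin-G2 and was listed here as a claustrum marker, was at 76.8, 67.5, 66.5 and 81.1 CPM in the Loxp libraries, 70.3 and 69.6 in the Hetero libraries and 75.5, 115, 63.5 and 71.3 in cKO. The high library was again cKO 2. Of the 8 listed markers of layer 6b and claustrum, 7 were higher in cKO than in Loxp (median log2 fold change 0.12), none with an unadjusted p under 0.05, and their summed CPM ran from 229.5 to 282 in Loxp, 253 to 255 in Hetero and 242 to 305 in cKO, highest in cKO 2. Without cKO 2, 2 of the 8 were lower and 6 higher (median 0.17), and Nr4a2 was at −0.12. Without Loxp 2 the median of the markers was 0.06, with 3 of the 8 lower. The count was again 7 of 8 higher without the library labelled Loxp 4 (median 0.10). None of the 8 was at 0 in every library, and their part in the Nr4a2 values was not tested.

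Summed markers of microglia and thalamus were also highest in cKO 2, and those of other cells were not. The sum of 7 interneuron markers was lowest of all libraries there, at 680 CPM against 686.2 to 1018. That of 5 endothelium markers was 272.2 CPM in cKO 2 and 272.9 in Loxp 2. The summed CPM of 5 microglia markers was 272.5 in cKO 2 and 203.7 to 231.5 in the other libraries. That of 4 thalamus markers was 39.8 against 27.5 to 33.4. As a description over the 10 libraries, r with Nr4a2 was above 0 for 5 of 5 microglia markers (0.46 to 0.80, median 0.77), for 3 of 4 thalamus markers (median 0.38) and for 4 of 8 layer 6b and claustrum markers (median −0.01). It was above 0 for 2 of 7 interneuron markers (median −0.27) and 3 of 5 endothelium markers (median 0.05). Over 13294 genes the 95th percentile of r with Nr4a2 was 0.67. All these r include cKO 2, which was highest for Nr4a2 and for the summed markers of microglia and thalamus. None of these markers was at 0 in every library, and their part in the Nr4a2 values was not tested.

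Within cKO 2 these 8 markers went in different directions. Gnb4 was at 115 CPM there against 55.7 to 88.9 in the other libraries, and Lxn at 22.3 against 11.9 to 18.2, both also known from claustrum. The layer 6b genes Ctgf, Cplx3 and Nxph4 were lowest of all libraries in cKO 2, at 14.9, 23.3 and 3.33 CPM, and next lowest in Loxp 2, at 18.5, 25.9 and 3.44. Loxp 2, with similarly low striatal and layer 6b genes, had 40.5 CPM of Nr4a2. Loxp 2 differed from cKO 2 in several other markers, in both directions. Among those higher in cKO 2 were the summed microglia markers (225.7 against 272.5 CPM), Gnb4 (88.9 against 115) and Ntng2 (67.5 against 115). Among those lower in cKO 2 were Pvalb (45.9 against 18.1) and Rorb (74.25 against 44.5). The part of tissue make-up in the Nr4a2 value of cKO 2 was not tested. By Spearman's rho 0 of the 5 genes named for Nr4a2 were among its first 5, and by r after subtracting group means 1 was.

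The genes most like Nr4a3 were Fastkd5 (r = 0.96), Spry4 (0.91), Ephb3 (0.91), Stk40 (0.91) and Cbfa2t3 (0.89). Fastkd5, which encodes a mitochondrial RNA-binding protein, was at 3.18, 2.44, 3.46 and 2.43 CPM in the Loxp libraries, 2.71 and 2.56 in the Hetero libraries and 2.17, 2.85, 2.88 and 1.84 in cKO, in nearly the same order of libraries as Nr4a3. It also ranked first by Spearman's rho (0.95) and by r after subtracting group means (0.99). Fastkd5 was the only 1 of the 5 genes among the first 5 by either of these rankings. Spry4, an inhibitor of receptor tyrosine kinase signalling, had 10.7 to 19.3 CPM and was lowest in cKO 4, as Nr4a3 was. Neurod6 stood at r = 0.69 with Nr4a3, rank 211.

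**Figure D5:**
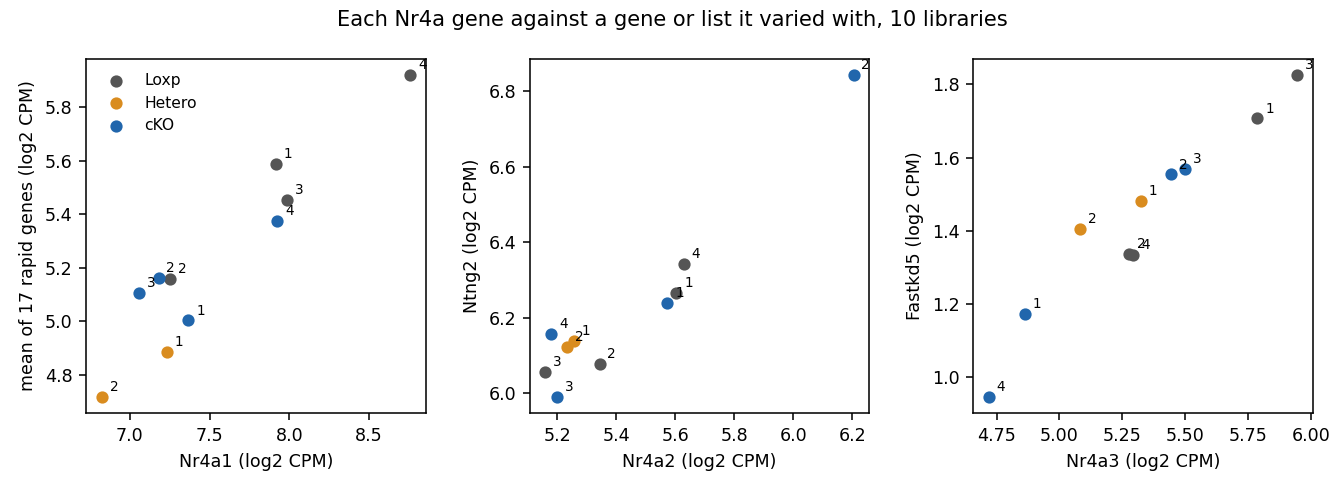
Log2 CPM of each Nr4a gene (x axes) in 10 libraries against the mean of 17 rapid genes, Ntng2 and Fastkd5 (y axes), with replicate numbers. Nr4a1 rises with the rapid genes across the libraries up to Loxp 4, the Nr4a2 panel is spread out by cKO 2, and the Nr4a3 panel runs from cKO 4 to Loxp 3.

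Among genes that act on Nr4a transcription none passed. Of 16 regulators, such as Creb1, the CRTC coactivators, Srf and MEF2 genes, 9 were higher and 7 lower in cKO (median log2 fold change 0.02), and 8 and 8 in Hetero (median 0.01), with none at an unadjusted p under 0.05. In each, 6 of the 16 were lower without the library labelled Loxp 4 (medians 0.03 and 0.03). Mkl1, a coactivator of SRF, was at 0.14 (SE 0.0867) in cKO and Crtc3, a coactivator of CREB, at 0.22 (SE 0.144). Srf stood at −0.10 (SE 0.0779) in cKO and −0.20 (SE 0.0964) in Hetero. For Creb1 the values were 0.02 (SE 0.0976) and −0.01 (SE 0.120).

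Of 8 genes of NR4A cofactors, 5 were lower in cKO (median log2 fold change −0.03) and 4 in Hetero (median 0.02), none at an unadjusted p under 0.05, and without the library labelled Loxp 4 there were again 5 and 4 lower (medians −0.06 and −0.00). Kdm1a, a histone demethylase of the CoREST complex, was at −0.08 (SE 0.0872) in cKO. Rxrb, the most abundant RXR gene, was at 0.03 (SE 0.0733) in cKO and 0.06 (SE 0.0897) in Hetero, and Rxra at 0.21 (SE 0.112) and −0.10 (SE 0.139). Rxrg was at −0.31 (SE 0.602) and −0.41 (SE 0.757), with 1.15 CPM in Loxp 2 and 22.4 in Loxp 1. The 4 Loxp libraries had the same order for Rxrg as for the summed striatal markers, and the 4 cKO libraries did not. Rxrg was at 10.55 CPM in cKO 3 and 4.77 in cKO 4, where the summed striatal markers were at 604.4 and 640.6.

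Genes induced later by activity were lower in 9 of 9 cases in cKO (median log2 fold change −0.25) and 8 of 9 in Hetero (median −0.13), with none passing. Over all tested genes 49.9% and 51.8% were lower. Bdnf, a neurotrophin, was at −0.46 (SE 0.141) in cKO and −0.21 (SE 0.174) in Hetero. Nptx2, a synaptic pentraxin, was at −0.32 (SE 0.135) in cKO, and Rgs2, a regulator of G protein signalling, at −0.32 (SE 0.141) in Hetero. In all, 2 genes of the list were lower at an unadjusted p under 0.05 in cKO and 1 in Hetero, against 1.06% and 1.25% of all genes. The counts were again 9 of 9 and 8 of 9 without the library labelled Loxp 4 (medians −0.24 and −0.12). Without cKO 2 the median in cKO was −0.13, with 8 of 9 lower, and without Loxp 2 the median in Hetero was −0.21.

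Endoplasmic reticulum chaperone genes reported as NR4A targets were lower for 8 of 9 in cKO (median log2 fold change −0.16) and 8 of 9 in Hetero (median −0.14). The shares of all genes that were lower were 49.9% and 51.8%, and none of the 9 was at an unadjusted p under 0.05. Hsp90b1, a chaperone gene, stood at −0.18 (SE 0.0959) and −0.24 (SE 0.119), and Dnajb11, a co-chaperone gene, at −0.16 (SE 0.0893) and −0.16 (SE 0.110). Without the library labelled Loxp 4, all 9 were lower in cKO and in Hetero, as were 47.9% and 49.6% of all genes, with medians of −0.22 and −0.22. Then 6 and 3 of the 9 were at an unadjusted p under 0.05, against 1.51% and 1.20% of all genes. Without cKO 2 or without Loxp 2, 0 of the 9 were at an unadjusted p under 0.05 in either comparison. In those 2 settings 9 and 8 were lower in cKO (medians −0.14 and −0.17), and 7 in Hetero each time (medians −0.14 and −0.13). Without Hetero 2 the Hetero median was −0.18, with 7 of 9 lower. Across the 10 libraries r with Nr4a3 ran from 0.48 (Pdia4) to 0.83 (Pdia6) over these 9 genes, with a median of 0.71, where the median over 13294 genes was 0.06 and the 95th percentile 0.56. With Nr4a1 2 of the 9 had r above 0, with a median of −0.30. This is a description over shared libraries and was read after the values were seen.

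Dopamine neuron targets of Nr4a2 were low in this tissue. Of 6 such genes 2 were higher and 4 lower in cKO (median log2 fold change −0.06), and 3 and 3 in Hetero (median 0.05), with none passing. Of the 6, 4 and 3 were lower without the library labelled Loxp 4 (medians −0.06 and −0.01). Th, which encodes tyrosine hydroxylase, had 3.02 ± 1.97 CPM over the 4 Loxp libraries (SD), 2.98 ± 0.912 over the 2 Hetero libraries (SD) and 2.42 ± 1.49 over the 4 cKO libraries (SD). Slc18a2, the vesicular monoamine transporter gene, was at −0.32 (SE 0.178) in cKO. Slc6a3, the dopamine transporter gene, was at 1.70 (SE 0.672), with 0.0393 to 0.193 CPM among Loxp libraries and 0.158 to 0.584 among cKO libraries, which rests on few counts.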

How the data were processed

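RNA from S1BF of 10 libraries (4 Loxp, 2 Hetero, 4 cKO) was sequenced; per the labels' protocols it was extracted with Trizol and made into libraries with the NEBNext Ultra RNA kit. The authors deposited read counts per gene, and FPKM per gene. Per the submitters' processing notes, featureCounts 1.5.0-p3 and mm10 were used; the aligner, the annotation and the strand setting were not given in the sources used here. Counts were tested with edgeR 4.0.16 in R 4.3.3 (TMM, filterByExpr, glmQLFit, glmQLFTest; Benjamini-Hochberg adjusted p under 0.05), with all 10 libraries in 1 fit and a mean per group. For log2 CPM the prior count was 2, and adjusted p of fold changes are from edgeR. The deposited FPKM served to compare levels between genes. Permutation tests were run in Python 3.11.15 (scipy 1.17.1), with 100000 permutations for correlations. The chi-square per gene between libraries showed no duplicates, and the edgeR step was tested on simulated data. The simulation gave all genes the same dispersion, so it does not show how the test behaves for genes with a larger spread.

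Members, lists, tests and alternatives were chosen with earlier results of these data known. Named by rule are the members, the RXR genes, Neurod6, from each list the 2 to 4 genes with the smallest p in cKO or Hetero against Loxp, and the 5 genes most like each member by r, among genes with a mean log2 CPM over 0; Amigo3, Creb1, Fos by rank, Gnb4, Lxn, Ctgf, Cplx3, Nxph4, Th, Pdia4 and Pdia6 were named after their values were seen. A gene that this rule picks among the cofactors is not reported here. Alternatives were other scalings and filters, a fit of only the 2 groups compared, a replicate block, DESeq2 1.42.0, limma-voom (limma 3.58.1), other prior counts and each library left out.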

Additional observations from a re-analysis of the deposited data

Results flagged for a closer look

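The log2 ratio of Nr4a1 to Nr4a3 in the library labelled Loxp 4 was 3.465, far from the other 3 Loxp libraries, at 2.13, 1.98 and 2.04. Its gap to the nearest of them was 0.900 of the whole range, above Dixon's 95% critical value for 4 samples. Of 12 groups of values examined (3 genes and 3 ratios in Loxp and cKO) this was the 1 that stood out, and chance flags about 1 in 20. The same library had the highest Nr4a1 of all, at 433 CPM, and the Neurod6 level of the Nex-cre libraries.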

How the results depend on the processing

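Of 183 recomputed fold changes of the 3 genes 172 kept direction and call. Nr4a1 passed with no low-count filter in cKO (−0.65) and Hetero (−1.04) against Loxp and in the Nex-cre contrast (−0.85); that setting called 32, 68, 39 and 61 genes in cKO against Loxp, Hetero against Loxp, cKO against Hetero and the Nex-cre contrast, where edgeR with the filter and all 10 libraries called 0. DESeq2 called 20, 3 and 7 in the last 3, and not Nr4a1.

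Leaving out 1 library gave 0 to 1 called genes in cKO against Loxp, 0 to 15 in Hetero against Loxp, 0 to 14 in cKO against Hetero and 0 to 1 in the Nex-cre contrast; the 15 and 14 were without Hetero 1, and the single genes without cKO 2 and without Loxp 2. Leaving out libraries for the gene lists was chosen after seeing the data. The fold change of Nr4a2 ranged from −0.12 to 0.27 in cKO against Loxp and from −0.16 to 0.0513 in the Nex-cre contrast, and that of Nr4a3 from −0.17 to 0.0895 in cKO against Hetero.

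Replicate numbers were shared by the groups. Deviations of same-numbered Loxp and cKO libraries correlated at 0.03, 0.27, 0.14 and 0.48. Those of Hetero 1 and 2 correlated at −0.08 and −0.02 with the same-numbered Loxp libraries. With the same-numbered cKO libraries they correlated at 0.09 and 0.03. The main tests and the exact permutation tests did not use the number, and whether it marks pairs is not settled by these values. Loxp 1 correlated better with cKO 2 (0.08) than with cKO 1. With the number as a replicate block edgeR called 1 gene in each comparison with Loxp, Arc. Nr4a1 was then at −0.60 (SE 0.120, edgeR adjusted p = 0.402) in cKO and −0.71 (SE 0.163, edgeR adjusted p = 0.8) in Hetero. Its unadjusted edgeR p were 0.000327 and 0.00093, against 0.0252 and 0.00807 without the block. For each number the cKO library had less Nr4a1 than the Loxp library. In the blocked fit Nr4a2 was at −0.41 in Hetero against Loxp, and Nr4a1 at 0.11 and Nr4a2 at 0.52 in cKO against Hetero. The 3 other Loxp libraries correlated best with the cKO library of their own number.

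Of 114 recomputed log2 ratios 107 kept their direction. The 7 others, all differences that did not pass, reversed without 1 library. Leaving out 1 in turn gave −0.0309 to 0.343 for Nr4a2/Nr4a3 in Hetero against Loxp, −0.47 to 0.20 and −0.514 to 0.0595 for Nr4a1/Nr4a3 in cKO against Loxp and in the Nex-cre contrast, and −0.24 to 0.35 for Nr4a1/Nr4a2 in cKO against Hetero. Of 18 recomputed correlations 6 weak ones changed sign: after group means Nr4a1 with Nr4a2 (−0.00762), Nr4a1 with Nr4a3 (−0.31) and the rapid genes with Nr4a3 (−0.10); without the 2 farthest libraries Nr4a1 with Nr4a3 (−0.0389), Nr4a2 with Nr4a3 (−0.00324) and the rapid genes with Nr4a2 (−0.04). The cause of these changes was not tested. With 2 Hetero libraries the exact test cannot go below 0.133, and the depth of 628 to 10854 counts per member and library did not limit these values.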
